A study of Ambystoma mexicanum with 44 samples.

Results

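Gene expression was compared between day 7 and day 3 in amputated axolotl forelimbs whose nerve supply had been cut, with 4 arrays at each day. These 8 arrays are all those of the denervated limb at these days, out of 44 arrays in the series. The animals were aquatic axolotls (Ambystoma mexicanum), housed one to a tank, with the forelimb amputated just above the elbow and the brachial nerves to that limb transected. Age, sex and genotype are not given in the sources used here. The tissue was the wound epidermis with the cells that stuck to it, pooled from 2 harvested samples of one animal for each of the 4 biological replicates. The same days were sampled in amputated limbs with intact nerves (the innervated limb, 4 arrays a day) and in punch wounds of 4 mm in the flank skin (4 arrays a day), and both serve here as comparisons. All day 3 and day 7 tissue was wounded. Uninjured epidermis of the limb and flank was collected at day 0, and the denervated limb has no such sample.

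An axolotl limb regrows from a blastema, a mound of proliferating cells under a specialised wound epidermis, and both need signals from nerves. A denervated stump closes its wound and then fails to sustain blastema growth, while a flank wound heals without forming a limb. Macrophages enter wounds and clear debris with lysosomal enzymes, and they are required for limb regrowth in axolotls. Osteoclasts, which derive from the same myeloid lineage, resorb the cut end of the bone by secreting acid and the collagen-degrading protease cathepsin K.

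Values are log2 signals of Affymetrix probe sets as deposited, each gene standing for its probe set with the highest mean, so that a difference of 1 is a doubling. Each difference is the day 7 mean minus the day 3 mean with its standard error from limma over all 44 arrays, and a probe set was called at a Benjamini-Hochberg adjusted p under 0.05 over 20035 probe sets. The number of arrays, 4 a group, limits the precision: the median standard error was 0.12 for a difference between days. In pieces of tissue like these, more cells of a type and more RNA per cell cannot be told apart.

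The epidermal label matched the data. Over the 8 arrays the keratin KRT8 lay between 13.84 and 14.22, the adhesion protein EPCAM between 13.12 and 13.49, desmoplakin DSP between 13.44 and 13.67 and E-cadherin CDH1 between 12.2 and 12.6, all far above the array medians of 5.61 to 5.72. KRT18 (10.49 to 11.04), TP63 (7.33 to 7.68) and PKP1 (6.64 to 7.82) lay lower, but also above these medians. Of 8 defining epidermal markers 7 were measured and none was called. Day 3 replicate 3 stood apart from the other day 3 arrays, with a root mean square deviation from its group mean of 0.386 against 0.252 to 0.262. It carried transcripts of skeletal muscle: over 30 measured muscle genes, its mean lay 3.28 above the mean of the 44 arrays, against -0.35, -1.68 and -1.57 in replicates 1, 2 and 4 and -1.72 to -1.56 at day 7. The fast myosin light chain MYL1 read 9.19, 3.93, 14.02 and 3.68 at day 3, and 3.64, 3.88, 3.63 and 3.77 at day 7. Replicate 1 was thus also raised, and none of the 30 muscle genes was called by limma, with 10 at an unadjusted p under 0.05, all lower at day 7. The main counts below are therefore given without day 3 replicate 3 too.

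Between day 3 and day 7, 1301 of 20035 probe sets (6.49%) were called in the denervated limb, 772 higher at day 7 (3.85%) and 529 lower (2.64%). At least 2-fold changes made up 169 of the rises (0.844%) and 88 of the falls (0.439%). Without day 3 replicate 3, 1099 were called, of which 995 were among the 1301 in the same direction, 609 rises and 386 falls. When each of the 8 arrays was left out in turn, 441 rises and 197 falls were called every time. Day 7 values lay wholly above the day 3 values for 6.34% of all probe sets and wholly below them for 5.07%, the background for each statement below that the days did not overlap. The largest named rises and falls were chosen among genes without overlap, so for them the lack of overlap is no separate result. The median over all probe sets was 0.01. Among 8639 named genes, each by 1 probe set, 379 rose (4.39%) and 259 fell (3.00%).

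The largest rise of any gene with a name was that of CTSK, cathepsin K. It read 8.8, 7.64, 7.8 and 7.85 in the 4 day 3 arrays and 13.13, 12.42, 12.76 and 11.64 in the 4 day 7 arrays. Every day 7 value was above every day 3 value by several log2 units. The difference was 4.46 ± 0.46, a 22.1-fold rise (limma, adjusted p = 1.436e-08). A second CTSK probe set rose by 1.39 ± 0.14. CTSK also rose in the innervated limb, by 2.06, and in the flank wound, by 2.25. By the probe set that stands for the gene, the larger rise without nerves did not pass the test against the innervated limb (a difference between the rises of 2.41 ± 0.65, adjusted p = 0.163) or against the flank wound (2.22 ± 0.65, adjusted p = 0.0753). By the second, dimmer probe set it passed both, at 0.98 (adjusted p = 0.042) and 0.82 (adjusted p = 0.028). The dependence of these calls on single arrays is not given here. Where limma used only the arrays of the groups compared, 0 probe sets passed the test against the innervated limb. The excess of CTSK over the innervated limb therefore rests on the choice of probe set and of arrays fitted. Its excess over the flank wound rests on the choice of probe set. Levels of CTSK in the denervated limb were already 6.25 at day 1 and 8.02 at day 3, against 5.72 and 6.31 in the innervated limb, although the innervated day 3 arrays reached from 5.64 to 7.94 and overlapped those without nerves. At day 7 the denervated arrays, from 11.64 up, all lay above the innervated arrays, which reached 9.99.

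ACP5, the tartrate-resistant acid phosphatase used to stain osteoclasts, rose with it. Its values were 7.64, 7.27, 8.01 and 7.16 at day 3 and 9.43, 9.19, 9.48 and 9.12 at day 7, with no overlap. The rise was 1.78 ± 0.23 (3.45-fold, adjusted p = 1.586e-06). In the innervated limb ACP5 differed between the days by 0.56 (adjusted p = 0.234) and in the flank wound by 0.47 (adjusted p = 0.219), neither of which passed. The denervated rise exceeded that of the flank wound by 1.32 ± 0.33 (adjusted p = 0.0308), a call that was lost without any 1 of 9 arrays, with an adjusted p up to 0.0813 without flank day 7 replicate 2. The 9 were denervated day 3 replicates 2 and 4, denervated day 7 replicates 1 and 3, flank day 3 replicates 1 to 3 and flank day 7 replicates 2 and 3. Against the innervated limb the excess of 1.22 did not pass (adjusted p = 0.164).

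**Figure D1:**
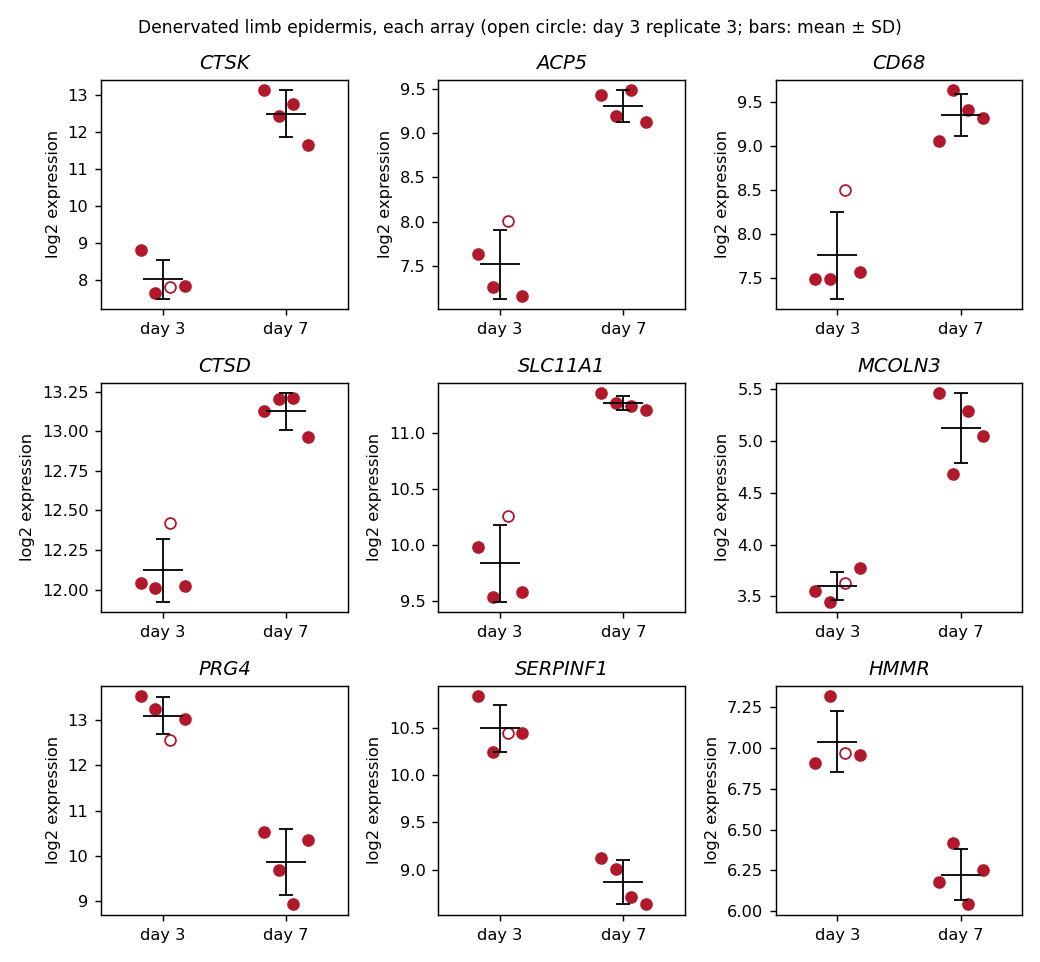
Log2 signal (vertical axis) of 9 genes in the denervated limb at day 3 and day 7 (horizontal axis), 1 point per array, with the mean and SD of each group of 4 as bars. The open circle is day 3 replicate 3. CTSK, ACP5, CD68, CTSD, SLC11A1 and MCOLN3 lie higher at day 7 and PRG4, SERPINF1 and HMMR lower, and in each panel the 4 values of one day do not overlap those of the other. For CTSK, ACP5, CD68, MCOLN3, PRG4 and SERPINF1 the lack of overlap was a condition of their choice.

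Of 12 measured members of an osteoclast list, 5 rose and 0 fell, with a median of 0.45 against 0.005 over all named genes. Besides CTSK and ACP5 these were TCIRG1, OSTM1 and CKB, and the same 5 were called whichever of the 8 arrays was left out. Without day 3 replicate 3, 6 rose and 0 fell. TCIRG1, a membrane subunit of the proton pump with which osteoclasts acidify bone, read 9.8, 9.58, 10.03 and 9.78 at day 3 and 10.6, 10.59, 10.65 and 10.45 at day 7, a rise of 0.78 ± 0.14 without overlap. TCIRG1 differed by -0.01 in the innervated limb and fell by 0.47 in the flank wound. The rise without nerves exceeded the flank change by 1.25 (adjusted p = 0.000272). OSTM1, the partner of the osteoclast chloride-proton exchanger, rose by 0.61 ± 0.11. CKB, a creatine kinase known in mouse to supply energy in osteoclasts, read 11.91, 10.95, 11.58 and 10.95 at day 3 and 13.24, 12.42, 12.9 and 12.04 at day 7, a rise of 1.30 ± 0.25, beside a difference of -0.11 in the innervated limb. The changes of CKB and TCIRG1 did not pass the test against the innervated limb (adjusted p = 0.129 and 0.114), and none of the 12 members passed it, with 5 at an unadjusted p under 0.05. The osteoclast transcription factor NFATC1 (0.10), the exchanger CLCN7 (0.14), the receptor SIGLEC15 (0.04) and the gelatinase MMP9 (-0.08) did not pass. Of 6 defining osteoclast markers, CTSK and ACP5 were the 2 measured.

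Among genes of macrophages and other phagocytes 14 of 29 measured members rose and 0 fell, with a median of 0.73, and without day 3 replicate 3 the count was 13 with a median of 0.80. Leaving out each of the 8 arrays in turn, 12 rose every time. CD68, a glycoprotein of macrophage lysosomes, read 7.49, 7.49, 8.5 and 7.57 at day 3 and 9.06, 9.64, 9.42 and 9.32 at day 7. Replicate 3 was the highest of the day 3 arrays and still lay below every day 7 array. The rise was 1.60 ± 0.27 (3.03-fold, adjusted p = 8.571e-05), and 1.84 without that replicate.

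The scavenger receptor MARCO read 6.38, 5.77, 7.59 and 6.04 at day 3 and 8.19, 8.02, 7.72 and 7.72 at day 7. Its groups touched most closely at day 3 replicate 3 but did not overlap, and the rise was 1.47 ± 0.26. CSF1R, the receptor for the growth factor on which macrophages and osteoclasts depend, read 6.14, 5.66, 6.42 and 5.79 at day 3 and 6.8, 6.7, 6.99 and 6.68 at day 7. It rose by 0.79 ± 0.17 without overlap, but a second CSF1R probe set read 0.0025 and did not pass (limma, adjusted p = 0.9946). CYBB, the catalytic subunit of the phagocyte oxidase, read 9.82, 9.43, 10.08 and 9.39 at day 3 and 10.67, 10.63, 10.78 and 10.79 at day 7, a rise of 1.04 ± 0.25. SLC11A1, a metal transporter of the phagosome membrane that was not in the list, read 9.98, 9.54, 10.26 and 9.58 at day 3 and 11.36, 11.27, 11.24 and 11.21 at day 7, again without overlap. It rose by 1.43 ± 0.24 (adjusted p = 7.044e-05), by 1.5 more than in the flank wound (adjusted p = 0.0133).

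Other phagocyte genes that rose were the secreted growth factor progranulin GRN (0.98), the cathepsins CTSC (0.92) and CTSZ (1.09), the complement component C1QC (0.94) and the transmembrane glycoprotein GPNMB (1.06). The oxidase subunit NCF1 was called at 0.85 (adjusted p = 0.0415), but the call was lost without any 1 array except day 3 replicate 1, with an adjusted p up to 0.189 without day 3 replicate 4. The phagocyte list was not raised throughout: the leukocyte phosphatase PTPRC (0.01), the myeloid transcription factor SPI1 (0.53, adjusted p = 0.218), IRF8 (-0.17) and lysozyme LYZ (0.33) did not pass. With intact nerves 5 of the 29 rose and 0 fell (median 0.27), and in the flank wound 5 rose and 2 fell (median 0.13). None of the 29 differed by the test between the changes in the denervated and the innervated limb, although the median difference was 0.53 and 12 passed at an unadjusted p under 0.05. The test against the flank change passed for 3 members (1.44% of all probe sets were called there in either direction). They were GRN, NCF1 and SPI1, each with the higher change in the denervated limb. For NCF1 (2.12) and SPI1 (1.66) the difference was larger than the denervated rise itself, so that their flank signal was lower at day 7 than at day 3. The GRN call was lost without denervated day 3 replicate 2 or flank day 3 replicate 3 (up to 0.0516).

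The lysosome list gave a similar count from mostly different genes. The 4 members shared with the phagocyte list, CTSB, CTSD, CTSZ and LGMN, all rose and count in both lists. Of 41 measured members 18 rose and 1 fell, with a median of 0.31, and 17 rises were called whichever array was left out. Without day 3 replicate 3 the counts were also 18 and 1. Hydrolases led the list. The aspartic protease CTSD read 12.04, 12.01, 12.42 and 12.02 at day 3 and 13.13, 13.2, 13.21 and 12.96 at day 7. Its groups were narrow and did not overlap, and it rose by 1.00 ± 0.09 (adjusted p = 2.326e-09). The protective protein CTSA rose by 1.16, acid ceramidase ASAH1 by 1.12, the cysteine protease CTSB by 0.73, legumain LGMN by 0.84 and the glucuronidase GUSB by 0.56.

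Cholesterol export from lysosomes was represented by NPC1, up by 0.56, and NPC2, up by 0.61. A second, dimmer NPC1 probe set read 0.035 and did not pass. The membrane proteins LAMP1 and LAMP2 rose by 0.31 and 0.56. Subunits of the vacuolar proton pump rose too, among them ATP6V1H by 0.69, ATP6V1E1 by 0.56, ATP6V0D1 by 0.39 and ATP6V1D by 0.41. Probe sets disagreed for ATP6V1A, which was called at 0.58 by one probe set and at -1.80 by another, and for ATP6AP1, the single fall, at -1.12 against 0.63. The ATP6V1A rise was also lost without any 1 of 6 arrays (day 3 replicates 1 to 4 and day 7 replicates 1 and 3), with an adjusted p up to 0.14 without day 7 replicate 1. For the pump subunit ATP6V1B2 the probe set that stands for the gene read 0.63 and did not pass (limma, adjusted p = 0.0542). Another ATP6V1B2 probe set of similar level was called at -1.655 (adjusted p = 4.501e-05). In the innervated limb 6 members of the list rose and 2 fell (median 0.10), and in the flank wound 9 rose and 2 fell (median 0.10). None of the 41 passed the test of the difference from the innervated change, with 14 at an unadjusted p under 0.05. The test against the flank change passed for 3, LAMP1 (0.48), CTSA (0.81) and ATP6V1A (1.15), and the CTSA call was lost without denervated day 3 replicate 2, denervated day 7 replicates 1 to 3, flank day 3 replicates 1 to 3 or flank day 7 replicate 2, each left out singly (up to 0.0687). By its other probe set ATP6V1A had the lower change in the denervated limb, at -1.80 against -0.255 in the flank.

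**Figure D2:**
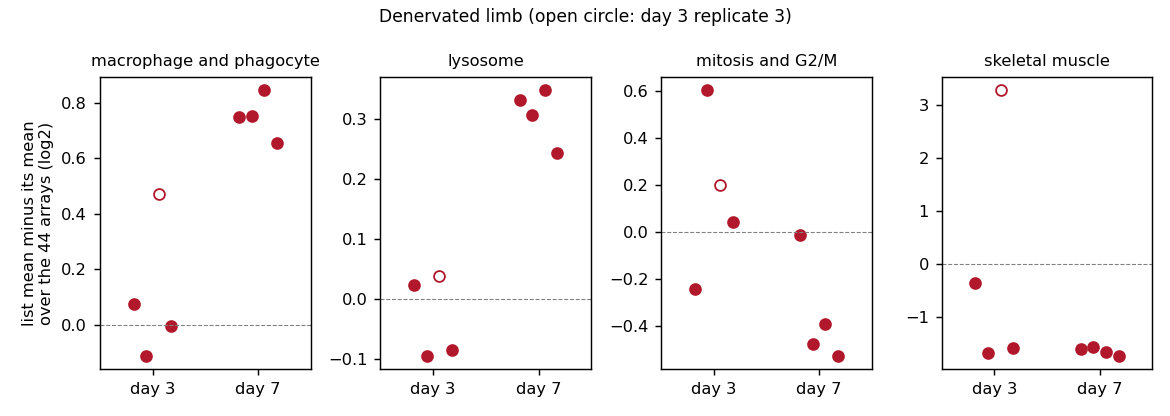
Mean of each gene list in each denervated array, as log2 distance from that list's mean over the 44 arrays (vertical axis), at day 3 and day 7 (horizontal axis), with 1 point per array and day 3 replicate 3 as an open circle. The phagocyte and lysosome lists lie higher in all 4 day 7 arrays, the mitosis list overlaps between the days, and the muscle list is high in day 3 replicate 3 at 3.28.

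The innervated limb went through the same days with fewer calls, 704 (3.51%, with 1.83% rising and 1.69% falling), and the flank wound with more, 2498 (12.5%, with 7.81% rising and 4.66% falling). Of the denervated calls 381 were also called in the innervated limb in the same direction, which is 29.3% of the denervated and 54.1% of the innervated calls, and 2 were called in opposite directions. With the flank wound, 595 were shared (45.7% of the denervated and 23.8% of the flank calls) and 18 were opposite. A gene called in one series only is not thereby shown to differ, so the changes were tested against each other. The difference between the denervated and the innervated change passed for 11 probe sets (0.0549%), 10 with the higher change in the denervated limb (0.0499%) and 1 with the lower (0.00499%). At an unadjusted p under 0.05 there were 1354.

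The count of 11 was sensitive to single arrays. It fell to 6 without innervated day 3 replicate 2 or innervated day 7 replicate 1, was 7 without denervated day 3 replicate 2 or denervated day 7 replicate 1, rose to 18 without denervated day 3 replicate 1 and to 25 without denervated day 7 replicate 2. Without denervated day 3 replicate 3 the count was 15, 10 with the higher change in the denervated limb and 5 with the lower. When limma used the 16 arrays of these 4 groups alone, 0 passed, with 1613 at an unadjusted p under 0.05. The 11 probe sets include 4 named genes, MCOLN3, IQUB, PDLIM7 and LMO7, the second CTSK probe set and 6 with no gene name here.

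MCOLN3, a cation channel of lysosomes and endosomes, read 3.55, 3.45, 3.63 and 3.77 in the denervated limb at day 3, near the 10th percentile of all values (3.53), and 5.46, 4.68, 5.29 and 5.05 at day 7. In the innervated limb it read 3.53, 3.98, 3.98 and 3.61 at day 7 and in the flank wound 3.84, 3.77, 3.88 and 4.09. All 4 denervated day 7 arrays were therefore above every other array of the series. The files give no detection call, so the values near the low end may be background, and the differences that follow are differences in measured signal. The rise was 1.52 ± 0.13 (2.87-fold, adjusted p = 5.231e-10), and it exceeded the innervated change by 1.15 ± 0.18 (adjusted p = 0.00204) and the flank change by 1.04 ± 0.18 (adjusted p = 0.00175). Both excesses were called whichever of the 16 arrays of the groups compared was left out.

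LMO7 and PDLIM7, proteins with LIM domains that bind the actin cytoskeleton, differed in another way. LMO7 read 9.79, 9.79, 9.63 and 10.29 in the denervated limb at day 3, below all 4 innervated day 3 arrays at 10.93, 11.11, 11.04 and 11.34. At day 7 it read 10.89, 10.59, 10.65 and 10.9 without nerves and 10.71, 10.83, 11.01 and 10.78 with them, so that the groups then overlapped. The denervated rise was 0.88 ± 0.13 and exceeded the innervated change by 1.15 ± 0.18 (adjusted p = 0.00154), but the other 2 LMO7 probe sets did not change.

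PDLIM7 likewise read 9.35, 9.75, 9.64 and 9.69 without nerves and 10.33, 10.68, 10.63 and 10.4 with nerves at day 3, and 11, 10.33, 10.84 and 10.66 against 10.11, 10.12, 10.36 and 10.49 at day 7. It rose by 1.10 ± 0.18 and the difference from the innervated change was 1.34 ± 0.25 (adjusted p = 0.0167). That call was lost without denervated day 7 replicate 1 or 3, innervated day 3 replicate 2 or innervated day 7 replicate 1, with an adjusted p up to 0.0708 without innervated day 3 replicate 2, and a second PDLIM7 probe set read -0.24 and did not pass.

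IQUB, which encodes a protein of cilia and flagella, rose by 0.72 ± 0.15 in the denervated limb and fell by 0.65 in the innervated limb. It read 3.99, 4.3, 4.27 and 3.88 at day 3 and 4.82, 5.03, 4.95 and 4.52 at day 7 without nerves, and 4.53, 5.51, 4.96 and 4.67 followed by 4.29, 4.38, 4.4 and 4 with nerves. The groups did not overlap in either series, and they moved in opposite directions. The difference of 1.37 ± 0.21 (adjusted p = 0.00154) was called whichever array was left out, although a second IQUB probe set did not change.

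**Figure D3:**
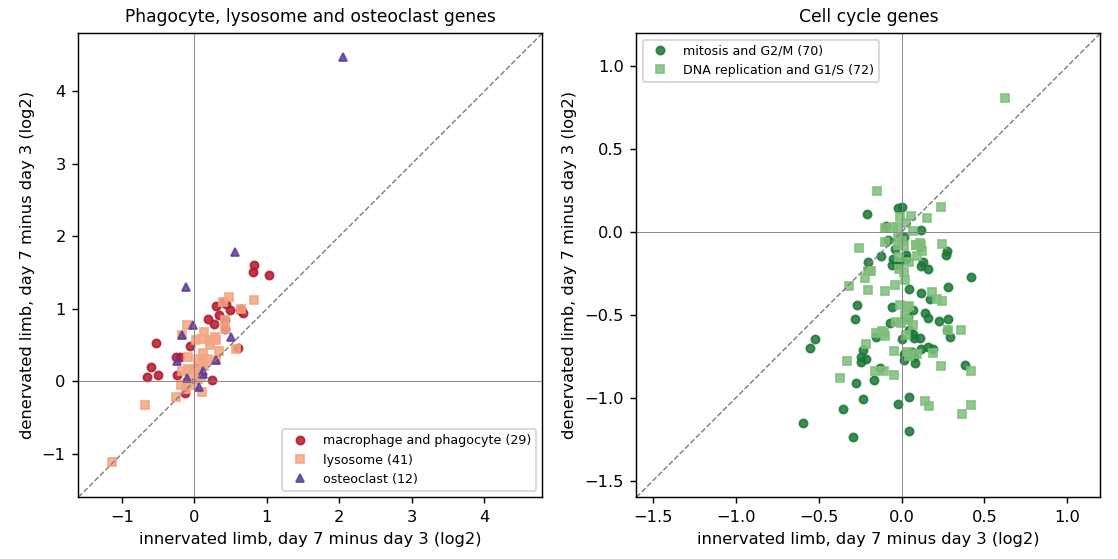
Change from day 3 to day 7 in the denervated limb (vertical axis, log2) against the same change in the innervated limb (horizontal axis, log2), 1 point per gene, with the line of equal change. The left panel holds the phagocyte (29), lysosome (41) and osteoclast (12) lists and the right panel the mitosis (70) and replication (72) lists, and most points on the right lie below zero on the vertical axis with innervated changes scattered around zero.

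All 20 of the largest named rises were called whichever of the 8 arrays was left out. A call without day 3 replicate 3 was a condition of the choice of these rises and of the largest named falls. FABP3, a fatty acid binding protein, read 9.8, 9.61, 10.88 and 9.75 at day 3 and 12.39, 12.42, 12.55 and 12.21 at day 7. The rise of 2.38 ± 0.36 stood beside rises of 2.33 in the innervated limb and 3.08 in the flank wound. SFRP4, a secreted Wnt antagonist, rose by 2.10, 2.13 and 2.81 in the denervated limb, the innervated limb and the flank wound. The carboxypeptidase CPZ rose by 2.30, 2.10 and 2.75, the lysoplasmalogenase TMEM86A by 2.22, 1.42 and 2.57, and the cadherin CDH15 by 1.70, 2.18 and 2.32, in the same order. RNASET2, a lysosomal ribonuclease, rose by 1.81, 1.33 and 1.34.

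CALB1, which buffers calcium, rose by 2.09 ± 0.29 without nerves and differed by 0.90 and 0.82, short of the threshold, in the other series, but the differences between series did not pass (adjusted p = 0.428 and 0.112). CD247, the signalling chain of the T cell receptor complex, read 6.48, 6.54, 6.82 and 6.62 at day 3 and 8.11, 8.51, 7.95 and 7.98 at day 7. It rose by 1.52 ± 0.13 (adjusted p = 5.231e-10), by 0.88 in the innervated limb, and read 0.23 in the flank wound (adjusted p = 0.305), which it exceeded by 1.29 ± 0.19 (adjusted p = 0.000101). It was the single called member of 5 measured lymphoid genes, and the B cell marker CD79A lay between 3.73 and 4.02 in the 8 arrays. RUNDC3B rose by 1.67 and the steroid dehydrogenase HSD17B14 by 1.62, each by more than in the flank wound (differences of 1.12 and 0.88, adjusted p = 0.00536 and 0.0131). Both also rose in the innervated limb, by 0.82 and 0.93, and the differences from it did not pass (adjusted p = 0.146 and 0.238).

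Most measured cell cycle genes were lower at day 7 in the denervated limb, but only a minority were called. Of 70 measured genes of mitosis and the G2/M phase 8 fell and 0 rose, with a median of -0.53, and 65 of the 70 were lower at day 7. At an unadjusted p under 0.05 there were 31, all lower. The same list had 0 rises and 1 fall in the innervated limb (median 0.02), and 1 rise and 0 falls in the flank wound (median 0.02). The median difference between the denervated and the innervated change was -0.54, but none of the 70 passed that test by limma, with 10 at an unadjusted p under 0.05. The count of falls depended on single arrays: it was 4 without day 3 replicate 2, day 3 replicate 3, or day 7 replicate 2, 3 or 4, and 11 without day 3 replicate 1, and it was 3 when only the 8 arrays were used. The mean of the list overlapped between the days, at -0.24, 0.60, 0.20 and 0.04 in the day 3 arrays and from -0.53 to -0.39 in 3 day 7 arrays, with day 7 replicate 1 at -0.01.

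The 4 falls called whichever array was left out were HMMR, KIF20B, CENPE and STMN1. HMMR, a spindle protein and hyaluronan receptor, read 6.91, 7.32, 6.97 and 6.96 at day 3 and 6.18, 6.42, 6.04 and 6.25 at day 7. The groups did not overlap, and it fell by 0.82 ± 0.17 (adjusted p = 0.00126), against changes of -0.13 in the innervated limb and 0.29 in the flank wound. The difference from the flank change was -1.11 (adjusted p = 0.0093). CENPE, a kinetochore motor, fell by 1.15 ± 0.27, the cytokinesis kinesin KIF20B by 0.70 and stathmin STMN1, which destabilises microtubules, by 0.59. Second, dimmer probe sets of HMMR (-0.175), CENPE (0.1275) and KIF20B (-0.5225) did not pass (limma, adjusted p = 0.2916, 0.4937 and 0.0545). The proliferation marker MKI67 (-0.34), topoisomerase TOP2A (-0.52) and cyclin CCNB1 (-0.59) did not pass.

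Of 72 measured genes of DNA replication and the G1/S transition 11 fell and 1 rose, with a median of -0.35, against 1 rise and 0 falls in the innervated limb (median 0.02) and 11 falls and 3 rises in the flank wound (median -0.24). In the denervated limb 61 of the 72 were lower, and 37 had an unadjusted p under 0.05, 35 of them lower. The test of the difference from the innervated change passed for 0, with 21 at an unadjusted p under 0.05, 20 of them lower. None of the 11 falls was called in every leave-one-out fit. With only the 8 arrays of the comparison 6 fell. Of the fits that left out 1 array, there were 0 falls without day 3 replicate 2, 3 without day 7 replicate 2 or 3, 5 without day 3 replicate 4 and 6 without day 7 replicate 4. Without day 3 replicate 3 there were 9 falls and 1 rise. MCM7, a subunit of the replicative helicase, read 10.18, 11.07, 10.29 and 10.66 at day 3 and 9.62, 9.42, 9.56 and 9.53 at day 7. The values did not overlap, day 3 replicate 2 was the highest, and the fall of 1.02 ± 0.27 (adjusted p = 0.0145) had an adjusted p of 0.0819 without it. MCM7 differed by 0.14 in the innervated limb, short of the threshold, and the difference between the series did not pass (adjusted p = 0.376). MCM8, a helicase of DNA repair, was the single rise, at 0.81, and it was called whichever array was left out.

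**Figure D4:**
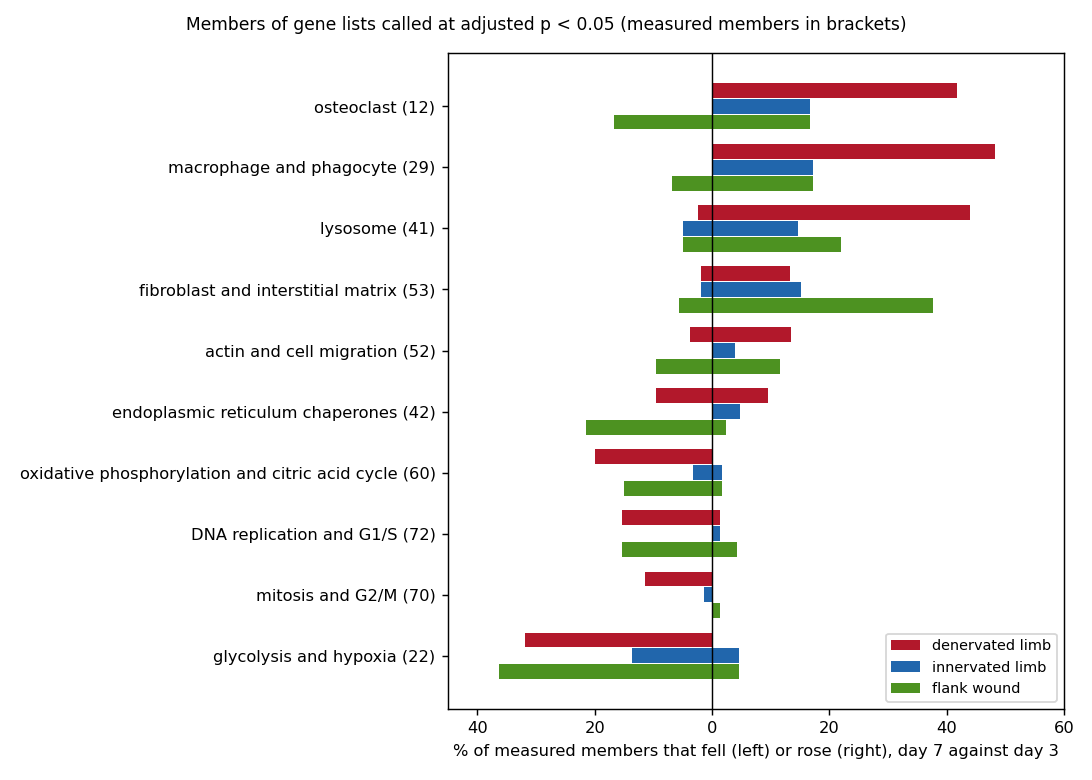
Share of the measured members of 10 gene lists (percent, horizontal axis) that rose or fell between day 3 and day 7 in the denervated limb, the innervated limb and the flank wound. The phagocyte, lysosome and osteoclast lists have their largest shares of rises, and the mitosis list its largest share of falls, in the denervated limb. The series also differed over all 8639 named genes. There 379 rose and 259 fell in the denervated limb, 177 and 157 in the innervated limb, and 760 and 454 in the flank wound. The shares were not tested against each other.

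Some genes of energy metabolism fell as well. Of 22 measured genes of glycolysis and the hypoxia response 7 fell and 0 rose (median -0.28). The count was 4 without day 3 replicate 1 or 3, and 3 when only the 8 arrays were used. The 3 called whichever array was left out were the glycolytic enzymes PGK1 (fell by 0.72) and TPI1 (fell by 0.63) and the hypoxia-induced NDRG1 (fell by 1.69). The innervated limb had 3 falls and 1 rise with a median of -0.27, and the flank wound 8 falls and 1 rise with a median of -0.23. Among 60 measured respiratory genes, those of the electron transport chain, ATP synthase and the citric acid cycle, there were 12 falls and 0 rises. The falls were small, with a median of -0.15 for the list: NDUFA2, a subunit of respiratory complex I, fell by 0.30 and the citric acid cycle enzyme SUCLG2 by 0.42. The count was 7 without day 3 replicate 3 or day 7 replicate 4 and 8 without day 7 replicate 3, and it was 0 when limma used only the 8 arrays of the comparison. Glycolytic and respiratory genes are abundant in muscle, whose transcripts were highest in day 3 replicate 3. With the muscle level of each array as a covariate 5 glycolysis genes and 8 respiratory genes fell. Whether muscle transcripts account for any of these falls was not tested.

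The largest falls were led by PRG4, lubricin, a lubricating glycoprotein of joints. PRG4 read 13.53, 13.24, 12.56 and 13.03 at day 3 and 10.52, 9.69, 8.93 and 10.35 at day 7. It fell by 3.22 ± 0.32 (9.30-fold, adjusted p = 9.272e-09) with no overlap, and by 3.60 and 3.78 in the innervated limb and the flank wound. It had been at 14.2 in the denervated limb at day 1, and at 7.26 in the innervated limb at day 0, so that the day 7 level was still above that of the limb at amputation.

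SERPINF1, a secreted inhibitor of blood vessel growth, read 10.84, 10.25, 10.45 and 10.45 at day 3 and 9.12, 9.01, 8.71 and 8.63 at day 7, a fall of 1.63 ± 0.19 (adjusted p = 1.262e-07) without overlap. It also fell in the innervated limb, by 0.79 (adjusted p = 0.0102), and its flank change of -0.24 did not pass. At day 7 it lay below all 4 innervated arrays (9.42 to 9.95) and all 4 flank arrays (10.5 to 10.93). The change differed from that of the flank wound by -1.39 ± 0.26 (adjusted p = 0.00326) and from that of the innervated limb by -0.84, which did not pass (adjusted p = 0.34).

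Of the 20 largest named falls 12 were called whichever of the 8 arrays was left out. Among them HMOX1, the haem-degrading enzyme, fell by 1.56, PEBP1, an inhibitor of Raf kinase, by 1.59, the mitochondrial dehydrogenase DHTKD1 by 1.42, the chaperone CALR by 0.99 and PGM1, which links glycogen and glycolysis, by 0.86. HMOX1 read 12.77, 13.06, 12.69 and 13.56 at day 3 and 11.59, 11.27, 11.42 and 11.57 at day 7, with no overlap. It fell by 2.12 in the innervated limb, and its flank change was -0.21. For CRYAB, a small heat shock protein, and for STARD10 the probe sets disagreed: CRYAB fell by 2.73 by one and rose by 0.76 by another, and STARD10 fell by 0.91 by one and rose by 0.60 by another.

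The other 8 lost the call without at least 1 array, MCM7 as given above. The endothelial proteoglycan ESM1, which fell by 1.28, had an adjusted p of 0.078 without day 3 replicate 1. The arginine-degrading enzyme ARG1, which fell by 1.09, lost it without day 3 replicate 1 or day 7 replicate 3 (up to 0.104). SCG2, which fell by 1.40, lost it without day 3 replicate 1 or 2 or day 7 replicate 2 (up to 0.118), and ETHE1, which fell by 1.04, without day 3 replicate 1 or 2 or day 7 replicate 1 (up to 0.121). A second ETHE1 probe set read -0.2175 and did not pass. The replication factor GINS2 (-0.86) lost it without day 3 replicate 2 or day 7 replicate 2 or 3 (up to 0.0606), and MTHFD2 (-0.86), an enzyme of folate metabolism, without day 3 replicate 2 or day 7 replicate 2 or 4 (up to 0.0578). SASS6 (-0.90), which builds centrioles, lost it without day 3 replicate 1 or 2 or day 7 replicate 2, 3 or 4 (up to 0.11).

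**Figure D5:**
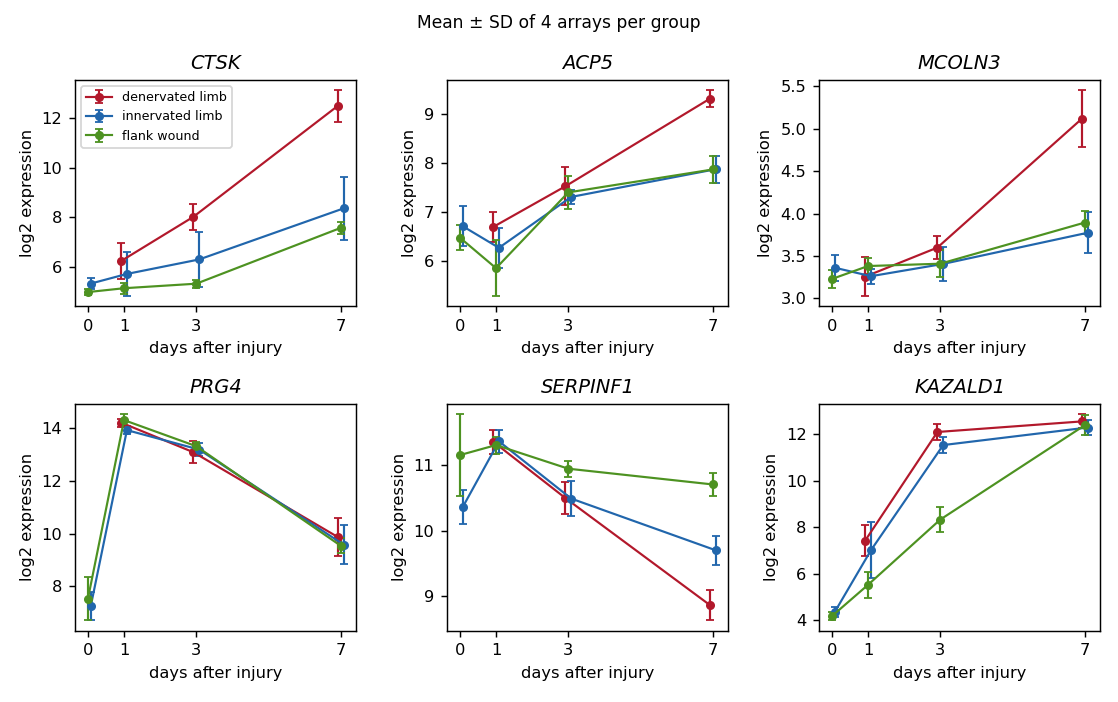
Mean log2 signal with SD of 4 arrays (vertical axis) of 6 genes on days 0, 1, 3 and 7 (horizontal axis) in the denervated limb, the innervated limb and the flank wound; the denervated limb has no day 0. CTSK, ACP5 and MCOLN3 reach their highest means in the denervated limb at day 7, PRG4 falls alike in the 3 series, SERPINF1 is lowest in the denervated limb at day 7, and KAZALD1 rises later in the flank wound.

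Matrix genes rose in smaller number. Of 53 measured genes of fibroblasts and interstitial matrix 7 rose and 1 fell (PRG4), with a median of 0.24, and the rises fell to 3 without day 3 replicate 1 or day 7 replicate 1, 2 or 4 and to 4 without day 3 replicate 2. Without day 3 replicate 3, 5 rose and 1 fell. The fibrillar collagen COL11A1, up by 1.14, the matrix glycoprotein FBLN1, up by 1.27, and the small proteoglycan DCN, up by 0.71, were called in every such fit. In the innervated limb 8 rose and 1 fell (median 0.14), and in the flank wound 20 rose and 3 fell (median 0.58). The protease TLL1, which processes procollagens, rose by 1.42 ± 0.35.

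Of 35 measured genes of limb development and the blastema 3 rose and 0 fell, with a median of 0.06. Over all named genes 4.39% rose and 3.00% fell. Without day 3 replicate 3, 2 of the list rose. The innervated limb had 4 rises in this list and the flank wound 3. The growth factor midkine MDK rose by 0.65 and IGFBP2, which binds insulin-like growth factors, by 0.81, against 2.04 for IGFBP2 in the innervated limb; the difference of -1.23 did not pass (adjusted p = 0.0507). The third was the receptor FGFR2, at 0.41, whose call was lost without day 3 replicate 1 or 3 or day 7 replicate 1, 2 or 3, with an adjusted p up to 0.195 without day 3 replicate 3. KAZALD1, a secreted protein of the axolotl blastema, read 11.77, 11.85, 12.37 and 12.42 at day 3 and 12.93, 12.63, 12.46 and 12.21 at day 7. The days overlapped and the difference of 0.46 did not pass, nor did the innervated difference of 0.76 (adjusted p = 0.366). The transcription factors SALL4 (-0.06) and MYCN (0.44) did not pass.

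CRABP1, which binds retinoic acid, read 5.03, 3.53, 3.57 and 3.99 at day 3 and 6.49, 5.67, 5.6 and 5.46 at day 7. The rise of 1.77 ± 0.49 (adjusted p = 0.0202) was lost without day 3 replicate 2 or 3 or day 7 replicate 1, with an adjusted p up to 0.0863 without day 7 replicate 1. CRABP1 rose by 4.17 in the innervated limb, and the difference of -2.40 did not pass (adjusted p = 0.242).

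Against the flank wound 288 probe sets (1.44%) differed in their change, 143 with the higher change in the denervated limb (0.714%) and 145 with the lower (0.724%), and 2817 passed at an unadjusted p under 0.05. The count was 186 without flank day 7 replicate 1 and 224 without denervated day 3 replicate 3. On the lower side, KAZALD1, PRICKLE2 and TMEFF1 rose between the days in the flank, and at day 3 their denervated values already lay above those of the flank. KAZALD1 read 7.94, 8.18, 9.15 and 8.08 in the flank at day 3 and 13.05, 12.14, 12.2 and 12.18 at day 7, by when it overlapped the denervated limb. The difference between the changes was -3.60 ± 0.52 (adjusted p = 0.000101). PRICKLE2, a planar polarity protein, read from 4.1 to 5.31 in the flank at day 3 and from 6.89 to 7.95 at day 7, while the denervated limb stayed between 6.81 and 7.76 at both days, a difference between changes of -3.02. TMEFF1, an inhibitor of Nodal signalling in frogs, had the same course, at 5.73 to 6.36 and then 7.5 to 8.2 in the flank and 7.57 to 8.4 over both days in the denervated limb (-2.05).

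MAMDC2 differed in that its day 7 level was also higher in the flank. It read 7.06 to 8.14 there at day 7 and 4.6 to 5.88 in the denervated limb, with a difference between changes of -2.56 ± 0.34 (adjusted p = 2.666e-05). MYLK, the kinase of myosin light chains, had a difference of -1.84, the sodium channel subunit SCNN1B of -1.81, MXRA5 of -2.05 and PRICKLE1 of -1.80. These 8 and ESM1 (-2.56) were called whichever of the 16 arrays was left out. For MYLK this holds for the probe set that stands for the gene. Its dimmer probe sets read 0.0325 and 0.2125 in the denervated limb and -0.145 and -0.2125 in the flank. Those changes did not pass and their order was the opposite. TMEM92 (-1.71, adjusted p = 0.0476) was lost without 14 of them, all but flank day 3 replicate 2 and flank day 7 replicate 3, with an adjusted p up to 0.13 without flank day 7 replicate 1.

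On the higher side the glucose transporter SLC2A1 had the largest named difference. It read 9.3, 11.09, 9.66 and 9.56 in the flank at day 3 and 7.41, 6.46, 5.97 and 7.71 at day 7, while the denervated limb read 9.36, 10.93, 7.14 and 9.37 and then 9.75, 9.65, 10.54 and 10.32. The flank values separated and the denervated values overlapped, and the changes differed by 3.88 ± 0.79 (adjusted p = 0.00611). The pattern receptor TLR2 likewise fell in the flank by 1.99 and read 0.12 in the denervated limb (a difference of 2.10, adjusted p = 0.0169).

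MMP2, a gelatinase, fell by 2.38 in the flank and by 1.83 in the innervated limb, and read -0.41 in the denervated limb (adjusted p = 0.522). At day 7 the denervated arrays, from 11.58 to 12.49, lay above the innervated arrays, from 9.56 to 10.99. The difference from the flank change was 1.96 ± 0.42 (adjusted p = 0.00937) and that from the innervated change 1.41, which did not pass (adjusted p = 0.276), and a second MMP2 probe set rose in both the denervated limb (1.66) and the flank (2.91).

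Of the 10 largest higher differences 6 were called whichever array was left out, among them NCF1 (2.12) and SPI1 (1.66) of the phagocyte list, and SLC11A1 (1.5). Complement C3 (2.41) was lost without any 1 of 12 of the 16 arrays (all but denervated day 3 replicate 1, denervated day 7 replicate 1 and flank day 3 replicates 2 and 4), with an adjusted p up to 0.12 without denervated day 7 replicate 4. The guidance cue SEMA3E (2.27) was lost without any 1 of 12, all but denervated day 3 replicate 4, denervated day 7 replicate 2, flank day 3 replicate 2 and flank day 7 replicate 1 (up to 0.103 without flank day 3 replicate 3). LOXL1 (1.62), which crosslinks elastin, was lost without denervated day 3 replicate 2, denervated day 7 replicate 1 or 2, flank day 3 replicate 1 or flank day 7 replicate 2 (up to 0.0772 without the last). The carbonic anhydrase CA7 (1.46) was lost without denervated day 3 replicate 2 or 4, denervated day 7 replicate 1 or 3, flank day 3 replicate 1 or 2, or flank day 7 replicate 1 or 2 (up to 0.0816 without denervated day 3 replicate 4).

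Markers of other cell types varied in level. Among endothelial markers CDH5 lay between 3.59 and 4.62, TEK between 3.31 and 3.98 and TIE1 between 3.24 and 3.61 in the 8 arrays. KDR lay between 4.35 and 4.7 and PECAM1 between 3.98 and 5.61. Among pigment cell markers TYR lay between 3.88 and 4.35, TYRP1 between 3.3 and 3.63 and DCT between 3.00 and 3.26. The Schwann cell marker PMP22 lay between 4.18 and 4.54. Of the neuron markers NEFL lay between 4.06 and 4.7 and NEFM between 3.74 and 4.22. STMN2 read 4.69 to 4.87 at day 3 and 5.09 to 5.26 at day 7. The fibroblast regulators PRRX1 (3.87 to 4.46) and PDGFRA (3.41 to 3.95) were as low, but the 3 collagens among the fibroblast markers were not. COL1A1 read 11.57 to 12.62 at day 3 and 12.29 to 12.98 at day 7, which overlapped, COL1A2 read 11.4 to 11.71 and then 11.97 to 12.59, and COL3A1 read 14.01 to 14.15 and then 14.22 to 14.31. COL1A2 and COL3A1 did not overlap, but no collagen of the 3 was called (differences of 0.58, 0.72 and 0.18, adjusted p = 0.459, 0.133 and 0.765). The cartilage proteoglycan ACAN read 9.4 to 10.83 at day 3 and 10.07 to 10.45 at day 7, and the erythroid enzyme ALAS2 8.77 to 9.09 and then 7.18 to 8.43. The ALAS2 fall was called (adjusted p = 0.0478) but was lost without any 1 array except day 7 replicate 3 (up to 0.134). The 3 defining granulocyte markers were not measured under their symbols. The summed level of the phagocyte list, as a mean distance from the 44 arrays, spanned -0.11 to 0.47 in the day 3 arrays and 0.66 to 0.84 in the day 7 arrays. It was highest at day 3 in replicate 3.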

How the data were processed

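Epidermis with adhering cells was profiled on an Affymetrix array in 44 samples, 11 groups of 4. The authors deposited log2 values per probe set, from 2.41 to 15.04; RMA and limma are named, without version or role, per the submitters' processing notes. All values were used as deposited. Of 20080 probe sets 45 controls were left out, and 10951 of the remaining 20035 had 1 gene symbol (8639 genes; 9084 probe sets are unnamed here). A gene stands for its probe set with the highest mean. Of 1740 genes with several probe sets, 5 were called in opposite directions by different ones (ABCA1, ATP6AP1, ATP6V1A, CRYAB and STARD10). For further named genes a dimmer probe set did not pass, among them FBLN1, NDRG1, CALR, GRN, MCM7 and RNASET2.

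Limma 3.58.1 in R 4.3.3 (lmFit, eBayes) fitted 1 mean per group, with 33 residual degrees of freedom and two-sided tests. Contrasts gave day 7 minus day 3 and the differences between such changes. The labels call the 4 samples of a group biological replicates, and no scan date or other batch is given in the sources used here. The self-test used simulated arrays, drawn with independent normal noise around a common mean for each probe set. A log2 change of 1 was added to 50 of 20035 probe sets at denervated day 7, and 88.0% were recovered. For the difference from the innervated limb 68.0% were recovered. The simulation had no array effects and no correlation between genes, so these shares do not give the power of the real arrays.

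The members and the 37 gene lists were chosen with earlier results of these data known. Named genes are up to 20 rises and 20 falls with the largest difference among those with 1 symbol, a call with and without denervated day 3 replicate 3 and no overlap between days; up to 10 each way for differences between changes; and up to 6 members of a list with the smallest adjusted p. Other list members were named after their values were seen.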

Additional observations from a re-analysis of the deposited data

Results flagged for a closer look

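Single arrays were examined in groups of 4 by the gap between the extreme array and its nearest neighbour as a share of the group's range, with a critical value of 0.829. Chance flags about 1 in 20 groups, and 20 of 338 (5.92%) exceeded it, 4 of them at denervated day 3 replicate 3. That array was the highest of its group for FABP3 (0.85), CD68 (0.921), CTSD (0.927) and MAMDC2 (0.965). Other high arrays at day 3 were replicate 4 for PEBP1 (0.921) and for the mean of the EGF and FGF receptor list (0.831), replicate 2 for HMMR (0.854) and RPA3 (0.914), and replicate 1 for the retinoid list (0.95). FREM1 was lowest in day 3 replicate 2 (0.833). At day 7 replicate 1 was the highest for RUNDC3B (0.909), UBE2S (0.935), the replication list (0.844) and the list of oxidative phosphorylation (0.936), and the lowest for ETHE1 (0.855). Day 7 replicate 4 was the lowest for MPP1 (0.877), PEBP1 (0.898), GRN (0.87) and the lymphoid list (0.919), and the highest for PGM1 (0.875).

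Named genes whose change from day 3 to day 7 differed by limma between the denervated and the innervated limb were MCOLN3 (1.15), IQUB (1.37), PDLIM7 (1.34) and LMO7 (1.15), each higher without nerves. The change was higher in the denervated limb than in the flank wound for SLC2A1 (3.88), C3 (2.41), SEMA3E (2.27), NCF1 (2.12), TLR2 (2.1), MMP2 (1.96), SPI1 (1.66), LOXL1 (1.62), SLC11A1 (1.5), CA7 (1.46), ACP5 (1.32), CD247 (1.29), TCIRG1 (1.25), ATP6V1A (1.15), RUNDC3B (1.12), MCOLN3 (1.04), HSD17B14 (0.88), CTSA (0.81), GRN (0.78) and LMO7 (0.74). It was lower than in the flank wound for KAZALD1 (-3.6), PRICKLE2 (-3.02), ESM1 (-2.56), MAMDC2 (-2.56), TMEFF1 (-2.05), MXRA5 (-2.05), MYLK (-1.84), SCNN1B (-1.81), PRICKLE1 (-1.8), TMEM92 (-1.71), IGFBP2 (-1.45), SERPINF1 (-1.39), SMAD1 (-1.15), HMMR (-1.11) and UBE2S (-0.81). Of those not given with their single-array dependence above, the LMO7 difference from the flank was lost without any 1 of 8 arrays (denervated day 3 replicates 1 and 3, denervated day 7 replicates 1 and 4, flank day 3 replicates 1 and 2, flank day 7 replicates 1 and 2, up to 0.0717) and that of UBE2S without flank day 3 replicate 1 or flank day 7 replicate 2 (up to 0.0531). Each value is for the probe set that stands for the gene. For other probe sets of ATP6V1A, MMP2 and MYLK the order of the denervated and flank changes was the opposite, as given above, though those of MYLK did not pass. The same holds for a dimmer LMO7 probe set, at -0.0475 in the denervated limb and 0.2025 in the flank, neither of which passed.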

How the results depend on the processing

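The denervated count of 1301 became 742 with only its own 8 arrays, 641 by the mean of all probe sets of a gene (8639 genes tested), 257 when a 2-fold difference was also required and 684 at an adjusted p under 0.01, and it ranged from 958 to 1099 over 8 fits that left out 1 array. The labels do not say that replicate numbers pair the arrays. Correlations of same-numbered deviations were 0.228, -0.123, 0.014 and 0.0757, which cannot exclude pairing. A replicate block gave 469 calls with 8 arrays and 1372 with 44. For the difference from the innervated limb, 11 became 0 with only 16 arrays (1613 at an unadjusted p under 0.05), 18 with the replicate block, 23 after quantile normalization, 22 without the dimmest 25% of probe sets, 22 with trended robust moderation, 62 with array weights and 4 by the mean over probe sets, and it ranged from 6 to 25 without single arrays. For the difference from the flank wound, 288 became 505 with array weights and 131 by the mean over probe sets, and ranged from 186 to 303 without single arrays. The share of higher changes among these was 49.7%, and 61.6% after quantile normalization. ATP6V1A (-0.61), ATP6V1B2 (-0.51) and STARD10 (0.03) reversed by the mean over probe sets, whose other probe sets moved the opposite way. Of 146 results for named genes, 76 lost the call in at least 1 alternative, 45 of them with only the arrays compared. With the replicate block and 8 arrays, 51 of the 116 results it covered lost the call. The causes were not tested. The alternative for linear values was not run, since the values are logarithms.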

Other observations

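List counts in this section stand beside 4.39% of all named genes rising and 3.00% falling in the denervated limb. Genes of the endoplasmic reticulum moved both ways in the denervated limb: of 42 measured, 4 rose and 4 fell. Without day 3 replicate 3, 2 rose and 4 fell. The retrieval receptor KDELR3 rose by 0.90 and the stress transcription factor XBP1 by 0.41, while the chaperones CALR and HSP90B1 fell by 0.99 and 0.56, and these 4 were called whichever of the 8 arrays was left out. Of 52 genes of actin and cell migration 7 rose and 2 fell (median 0.05), and 4 rises were called in every such fit: PDLIM7, the integrin subunits ITGAV (0.67) and ITGB5 (0.57), which pair as a receptor for vitronectin, and the GTPase RHOA (0.20). Other probe sets did not pass for RHOA (-0.1025 and 0.0025), ITGAV (0.26) or ITGB5 (0.15). The rises were 4 in number without day 7 replicate 1 and 5 without day 3 replicate 3, and the falls 0 without day 3 replicate 2 and 1 without any other array. Of 58 genes of ribosome biogenesis 5 fell, but 1 without 6 of the 8 arrays (all but day 3 replicate 4, with 3, and day 7 replicate 1, with 4). Of 36 proteasome genes 3 fell, with 0 without day 3 replicate 3 or day 7 replicate 2 or 3 and 1 without day 3 replicate 2 or day 7 replicate 1. None of 56 cytosolic ribosomal protein genes was called by limma (median -0.02), with 2 at an unadjusted p under 0.05.

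Calls in the epidermal lists stand beside 4.39% of all named genes rising and 3.00% falling. Of 44 genes of epidermal differentiation and junctions the transglutaminase TGM1, which crosslinks the cornified envelope in mammals, was called at 1.25 (adjusted p = 0.0194) and the epidermal transcription factor GRHL3 at 0.59. TGM1 was lost without day 3 replicate 1 or 2 or day 7 replicate 1 or 4 (up to 0.099), and GRHL3 without day 7 replicate 3 (0.0761). TGM1 read -0.85 in the innervated limb, and the difference of 2.11 did not pass (adjusted p = 0.086). The water channel AQP3 rose by 0.61 and was called in every fit, although a second, dimmer probe set read 0.0225 and did not pass. Among 28 basement membrane genes 3 were called: the peroxidase PXDN at 0.96, lost without day 7 replicate 1 (0.0541), FREM1 at 0.42, lost without day 3 replicate 2 or day 7 replicate 3 (up to 0.0584), and the laminin LAMA1 at 0.91, lost without day 3 replicate 1 or 3 or day 7 replicate 2, 3 or 4 (up to 0.146).

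Signalling and inflammatory lists are to be read beside the same shares of all named genes. Of 27 genes of TGF-beta signalling SMAD2 fell by 0.27, a call kept whichever of the 8 arrays was left out. TGFBI was called at 0.65 but lost without day 3 replicate 1 or 4 or day 7 replicate 1 or 2 (up to 0.0847). Of 23 Wnt genes SFRP4 rose, and of 20 complement and coagulation genes the inhibitor TFPI rose by 0.55. Of 22 inflammatory mediators 1 rose and 2 fell: HMOX1 fell by 1.56 whichever array was left out, ARG1 fell by 1.09 and was lost without day 3 replicate 1 or day 7 replicate 3 (up to 0.104), and the chemokine CXCL12 was called at 0.52 and was lost without day 3 replicate 1 or day 7 replicate 1 or 2 (up to 0.128). Of 18 nerve genes the tubulin TUBB3 was called at 0.59, but was lost without any 1 array except day 3 replicate 1 and day 7 replicate 4 (up to 0.196).

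The lists of antigen presentation (10), cholesterol synthesis (18), immediate early factors (25), pigment cells (7), keratins (2) and granulocytes (2) had 0 calls by limma. At an unadjusted p under 0.05 cholesterol synthesis had 2, immediate early factors 1, pigment cells 1 and the other 3 lists 0.

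Several lists rested on 1 call that single arrays decided, beside 4.39% of all named genes rising and 3.00% falling. Of 7 erythrocyte genes the haem synthesis enzyme ALAS2 was called at -1.39, and it was lost without any 1 array except day 7 replicate 3 (up to 0.134). Of 14 endothelial genes the receptor FLT1 was called at -0.56, lost without any 1 array except day 3 replicate 2 and day 7 replicate 4 (up to 0.19). Of 14 cartilage and bone genes the matrilin MATN4 was called at 0.75, lost without day 7 replicate 1 or 3 (up to 0.0751). Of 17 BMP genes the mediator SMAD1 was called at -0.35, lost without day 3 replicate 1 or 3 or day 7 replicate 2, 3 or 4 (up to 0.178). Of 28 matrix proteases and inhibitors CTSK and TLL1 rose, called whichever of the 8 arrays was left out. ADAM10 was called at -0.25, lost without day 3 replicate 1, 2 or 4 or day 7 replicate 1 or 3 (up to 0.11). CRABP1 was the single call among 16 retinoid genes and FGFR2 among 25 genes of EGF and FGF receptor signalling.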
